A study of Mus musculus with 15 samples.

Results

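10 genes of Wnt signalling were followed in single cells of the mouse embryonic heart: the ligand genes Wnt2, Wnt5a and Wnt11, the agonist gene Rspo3, the inhibitor genes Sfrp1, Sfrp5, Dkk1 and Tmem88, the target gene Axin2 and the nuclear factor gene Lef1. They were taken by name as 10 of the 23154 genes measured, and all 10 had a value in every library. At each stage, cells of embryos carrying Isl1Cre together with the Rosa26tdTomato reporter were set against cells of embryos carrying Nkx2-5Cre with the same reporter. The reporter turns red once Cre has acted in a cell and stays on in the cell's descendants. Isl1 and Nkx2-5 are heart transcription factor genes, and Isl1 is best known from the second heart field, the progenitor population that adds cells to the early heart tube.

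The stages ran from day E7.75 through E8.25 and E8.75 to E9.25, which gave 8 groups of 2 libraries each, except Isl1Cre at E9.25 with 1. The libraries of a group carry the same embryo number in their titles and probably came from 1 embryo, so lineage and stage cannot be told apart from single embryos, and p-values measure only the spread between libraries. Cells were either sorted by flow cytometry or only dissociated before they were picked by hand, and the sources used here do not say which was done for which library, nor whether the tdTomato signal was the gate. Of 1400 cells, 1332 with at least 2000 counts and 1000 detected genes were kept (594 of Isl1Cre and 738 of Nkx2-5Cre), with library totals of 8165519 to 38321215 counts. A level below is the mean CPM (a gene's counts scaled to a common total per cell) over the kept cells of a library, so fewer expressing cells and less RNA per cell cannot be told apart from it alone. Tnnt2, the cardiac troponin T gene that marks heart muscle cells, was counted in 100% of kept cells of each of the 15 libraries, at 960.0 to 6566.2 CPM.

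Wnt ligands are secreted lipid-modified proteins that bind Frizzled receptors. In the canonical branch, binding with an Lrp5 or Lrp6 co-receptor stabilises beta-catenin, which then acts with TCF and LEF proteins on target genes such as Axin2; other ligands, Wnt5a and Wnt11 among them, are best known for signalling without beta-catenin, in cell polarity and movement. Secreted frizzled-related proteins bind Wnt ligands, Dickkopf 1 binds the Lrp co-receptors, and R-spondins strengthen the signal by keeping receptors at the cell surface. In the early heart, canonical signalling is known to favour progenitor expansion and its inhibition to favour muscle differentiation.

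Promoter sequences are shown for Wnt11, Sfrp5 and Dkk1, since these genes changed most between E7.75 and E8.25 in Nkx2-5Cre cells and have an entry in the RefSeq table (build GRCm38.p6), which holds 6 of the 10 genes. Each runs from 250 bases before to 50 bases after a transcription start, 5′ to 3′ on the gene's strand. Capitals mark matches on either strand to CTTTGAA or CTTTGAT (the TCF and LEF motif), TNAAGTG (the NKX2 motif), AGATAA (the GATA motif) or AGGTGTG (the TBX motif). No match overlaps another in the 3 windows.
Wnt11, chr7:98834862-98835161, plus strand: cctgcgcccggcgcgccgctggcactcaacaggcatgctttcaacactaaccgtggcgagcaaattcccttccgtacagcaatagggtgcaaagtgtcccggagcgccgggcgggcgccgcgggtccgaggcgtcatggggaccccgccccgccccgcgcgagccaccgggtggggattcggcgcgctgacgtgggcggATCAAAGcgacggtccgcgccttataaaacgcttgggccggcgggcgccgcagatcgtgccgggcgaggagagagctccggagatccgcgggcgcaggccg
Sfrp5, chr19:42202203-42202502, minus strand: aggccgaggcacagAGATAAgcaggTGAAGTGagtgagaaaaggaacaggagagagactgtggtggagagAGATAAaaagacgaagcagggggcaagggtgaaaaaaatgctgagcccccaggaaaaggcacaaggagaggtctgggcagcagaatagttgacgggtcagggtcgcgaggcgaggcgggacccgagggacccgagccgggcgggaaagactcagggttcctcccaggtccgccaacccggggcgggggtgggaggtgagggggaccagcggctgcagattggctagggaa
Dkk1, chr19:30549447-30549746, minus strand: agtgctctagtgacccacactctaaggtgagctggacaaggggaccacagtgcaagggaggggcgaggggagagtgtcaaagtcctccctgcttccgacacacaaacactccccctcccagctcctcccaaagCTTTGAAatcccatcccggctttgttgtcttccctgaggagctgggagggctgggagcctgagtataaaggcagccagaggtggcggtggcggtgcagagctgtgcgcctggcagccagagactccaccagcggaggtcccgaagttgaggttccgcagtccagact
The Wnt11 window held a TCF and LEF match starting at base 200 and the Dkk1 window held one at base 134. The Sfrp5 window held GATA matches at bases 15 and 71 and an NKX2 match at base 26. Of 27025 mouse promoters of the same length, 8.77% held a TCF and LEF match, 11.5% an NKX2 match, 11.4% a GATA match and 5.86% a TBX match. The table's second Wnt11 entry, at a downstream start, held none of the 4 motifs. These letter matches are descriptions of the windows and are not measured binding sites. Windows of Wnt2, Axin2 and Lef1 are in the same table, and Wnt5a, Rspo3, Sfrp1 and Tmem88 have none there.

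Between E7.75 and E8.25 the steps of the ligand genes Wnt2 and Wnt5a differed between Isl1Cre and Nkx2-5Cre cells. Both rose in Isl1Cre cells and did not pass the test in Nkx2-5Cre cells. The makeup of the Isl1Cre libraries changed over the same step, as given below, and its part in these rises was not tested. Wnt11 rose in Nkx2-5Cre cells, and its steps in the lineages were not called different. Its rise in Isl1Cre cells was not called by limma but was called by edgeR and DESeq2. All tests below are limma's on log2(mean CPM + 1), adjusted over 10665 genes with a threshold of 0.05, and changes are log2 changes ± SE. Axin2 failed the filter for low values (at least 5 CPM in at least 2 libraries), so 9 of the 10 genes were tested.

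Wnt2 (chr6:17988940-18030585), which encodes a ligand of the canonical branch, was at 57.0 and 71.3 CPM in the Isl1Cre libraries of E7.75, against 202.9 and 124.1 CPM in those of Nkx2-5Cre. The groups did not overlap, and Isl1Cre was 2.39-fold lower (-1.26 ± 0.26, adjusted p = 0.00538). From there Wnt2 went in Isl1Cre cells to 192.0 and 136.4 CPM at E8.25, 183.9 and 189.0 CPM at E8.75 and 62.7 CPM in the E9.25 library. Its step to E8.25 was 1.26 ± 0.26 (adjusted p = 0.00307) and its change between E8.25 and E9.25 was -1.25 ± 0.32 (adjusted p = 0.0189). In Nkx2-5Cre cells Wnt2 was at 91.5 and 133.0 CPM at E8.25, 217.5 and 328.2 CPM at E8.75, and 79.7 and 53.9 CPM at E9.25. There the first step was -0.52 ± 0.26 (adjusted p = 0.206), and the steps of the lineages differed by 1.78 ± 0.37 (adjusted p = 0.0179). Without Isl1Cre E7.75 replicate 1 the E7.75 difference, the Isl1Cre step and the difference of steps were no longer called (adjusted p = 0.0732, 0.0511 and 0.0824), and without Nkx2-5Cre E7.75 replicate 1 the E7.75 difference and the difference of steps were lost (adjusted p = 0.106 and 0.0893). Without Isl1Cre E8.25 replicate 1 the step, the difference of steps and the change to E9.25 were lost (adjusted p = 0.0721, 0.107 and 0.147).

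Wnt5a (chr14:28504750-28527448) had the closest replicates of the ligand genes at E7.75, at 23.7 and 21.0 CPM in Isl1Cre and 64.3 and 66.1 CPM in Nkx2-5Cre. Isl1Cre was 2.75-fold lower (-1.46 ± 0.26, adjusted p = 0.00176), and this call held under each of the 8 alternative settings and 15 omissions of a library. It was also tested in cells thinned at random to 20000 counts each, where it held in 20 of 21 draws made after the data were seen (adjusted p up to 0.0762). At E8.25 the Isl1Cre libraries were at 55.6 and 56.8 CPM, a step of 1.22 ± 0.26 (adjusted p = 0.00405). That step was not called by edgeR (1.01, adjusted p = 0.0586) or without Isl1Cre E7.75 replicate 2 (adjusted p = 0.0503), and it was called in 17 of the 21 draws. The Nkx2-5Cre libraries of E8.25 were at 35.9 and 66.2 CPM, a step of -0.41 ± 0.26 (adjusted p = 0.34). The difference between the steps was 1.63 ± 0.37 (adjusted p = 0.0287). It was lost without any 1 of the 4 libraries of E7.75, either Isl1Cre library of E8.25 or Nkx2-5Cre E8.25 replicate 1 (1.21 to 1.73, adjusted p = 0.0658 to 0.104), and with edgeR or DESeq2 (adjusted p = 0.169 and 0.097). Of the 21 draws, 7 called it (median 1.51, adjusted p = 0.0685). From E8.75 on, all 7 libraries lay between 33.6 and 52.8 CPM. At E8.75 Wnt5a was at 38.4 and 52.8 CPM in Isl1Cre, above the 33.6 and 35.1 CPM of Nkx2-5Cre but not called, and at E9.25 the lineages overlapped.

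Wnt11 (chr7:98835112-98855195) was low at E7.75, at 8.98 and 7.02 CPM in Isl1Cre and 5.22 and 9.22 CPM in Nkx2-5Cre. The Isl1Cre levels rested on few cells, with 71 and 27 summed counts and highest cells at 350.8 and 438.4 CPM. The tenth of cells with the most Wnt11 held 94.8% and 98.7% of its summed CPM there, against 86.0% and 68.6% in Nkx2-5Cre. In Nkx2-5Cre cells Wnt11 rose to 43.2 and 39.4 CPM at E8.25, which was 5.3-fold above E7.75 (2.41 ± 0.31, adjusted p = 2.69e-05), and stayed between 40.8 and 51.2 CPM in the 4 later libraries. In Isl1Cre cells it was at 17.5 and 14.3 CPM at E8.25, 47.2 and 57.8 CPM at E8.75 and 26.2 CPM at E9.25. At E8.25 Isl1Cre was thus 2.56-fold lower than Nkx2-5Cre (-1.36 ± 0.31, adjusted p = 0.0133). That call was lost without Nkx2-5Cre E8.25 replicate 1 or either Isl1Cre library of E8.25 (adjusted p = 0.0638 to 0.138), with edgeR (adjusted p = 0.0503) and in 19 of the 21 draws of thinned cells, with 2 calling it (median -1.22, adjusted p = 0.106). The Isl1Cre step of 0.84 ± 0.31 was not called by limma (adjusted p = 0.0822) but was by edgeR and DESeq2, which gave 2.08 and 2.06 (adjusted p = 0.0056 and 6.82e-05), and it was called in 20 of the 21 draws (median 2.25, adjusted p = 0.000832). The difference of the steps was -1.56 ± 0.43 (adjusted p = 0.07), and it was called without Nkx2-5Cre E7.75 replicate 2 (-1.96, adjusted p = 0.0315) and without endothelial-like and endoderm-like cells (-1.77, adjusted p = 0.0388). In thinned cells it was -1.71 to 0.35 over the 21 draws with a median of -0.16, and none called it, with 106 shallow cells left out.

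The share of cells with at least 1 count gave the same order at E8.25 for Wnt11 and at E7.75 for Wnt2 and Wnt5a. After each cell was thinned to 20000 counts, which left out the 106 shallower cells, Wnt11 was seen in 29.3% and 24.4% of Isl1Cre cells and 41.1% and 37.9% of Nkx2-5Cre cells at E8.25 (medians of the 21 draws, here and below). At E7.75 the share for Wnt11 was 5.95% and 3.66% in Isl1Cre libraries and 6.98% and 14.3% in Nkx2-5Cre libraries. Wnt2 was seen in 45.2% and 40.2% of Isl1Cre cells at E7.75, against 82.6% and 70.2% of Nkx2-5Cre cells. Wnt5a was seen in 25% and 17.1% of Isl1Cre cells, against 53.5% and 53.6% of Nkx2-5Cre cells. Without thinning the shares were higher in each library: at E7.75 Wnt2 was seen in 67.8% and 63.5% of Isl1Cre cells, against 98.9% and 90.4% of Nkx2-5Cre cells, and Wnt5a in 40.0% and 35.3%, against 94.5% and 86.2%. Unthinned Wnt11 at E8.25 was seen in 57.0% and 64.5% of Isl1Cre cells, against 86.2% and 66.7% of Nkx2-5Cre cells. In the Isl1Cre library of E9.25 the thinned share for Wnt2 was 31.3% to 41.0% over the draws, and 38.6% in the draw made first (exact Clopper-Pearson 95% interval 28.1% to 49.9%, counting error only).

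**Figure D1:**
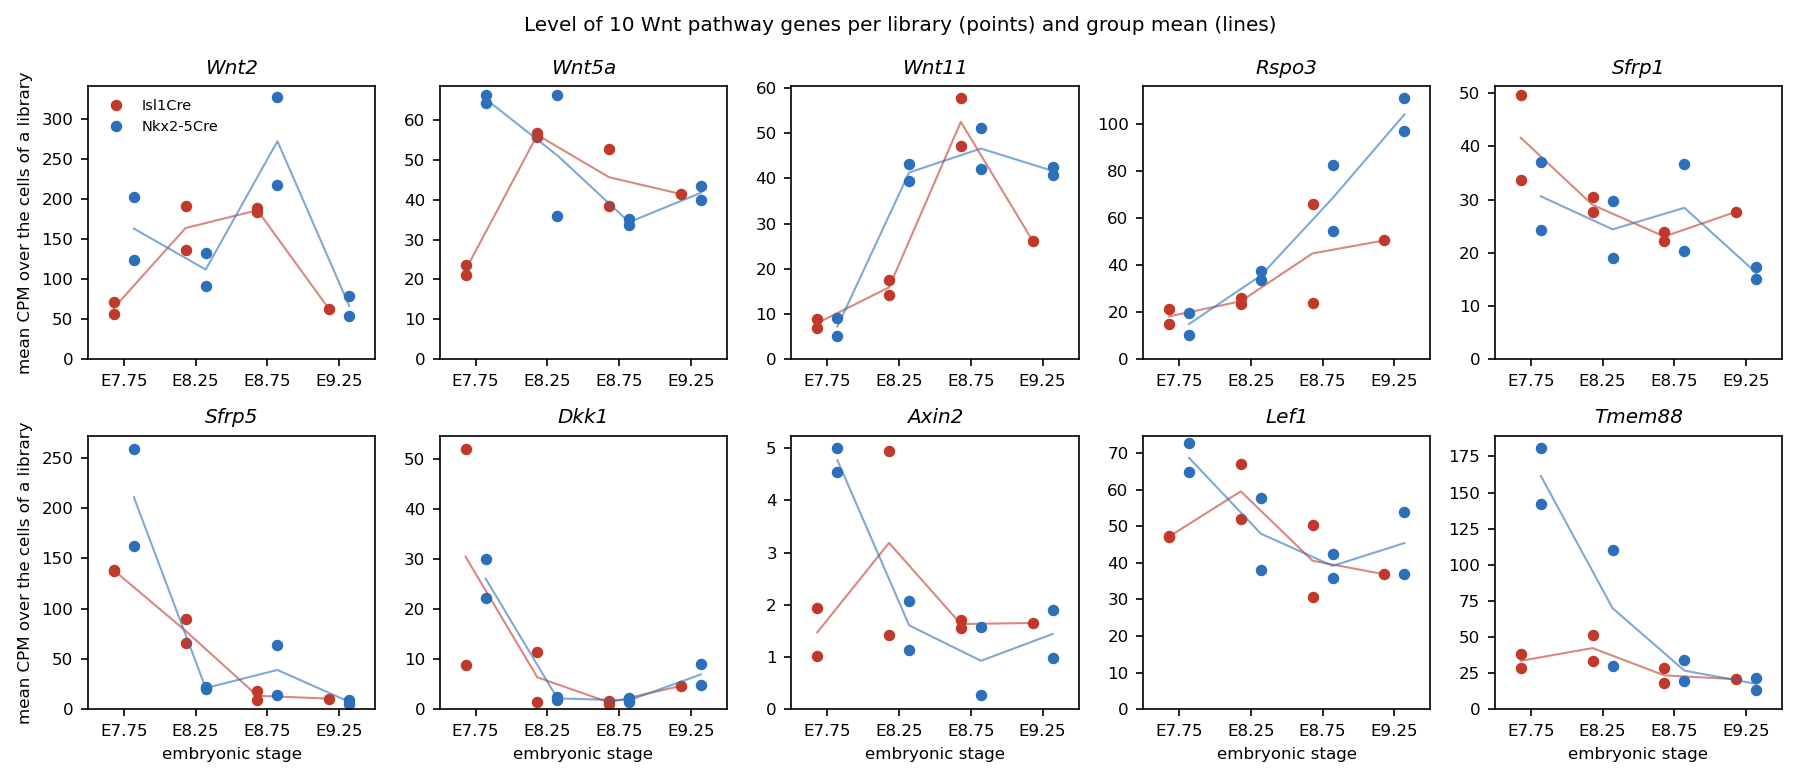
Mean CPM over the kept cells of each library (points, y axis from 0 and scaled per gene) by embryonic stage, with lines through the group means, for Isl1Cre (red, left of each pair) and Nkx2-5Cre (blue). At E7.75 Wnt2, Wnt5a and Tmem88 show both Isl1Cre points below both Nkx2-5Cre points, and Rspo3 in Nkx2-5Cre reaches 111.1 and 97.0 CPM at E9.25.

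Rspo3 (chr10:29452416-29535867), which encodes the secreted agonist R-spondin 3, had its highest levels in late Nkx2-5Cre cells. In Nkx2-5Cre libraries it was at 10.2 and 19.8 CPM at E7.75, 37.6 and 33.6 CPM at E8.25, 54.4 and 82.6 CPM at E8.75, and 111.1 and 97.0 CPM at E9.25. In Isl1Cre libraries it was at 21.3 and 15.1, 25.9 and 23.4, and 24.1 and 65.9 CPM at the first 3 stages and 50.5 CPM at E9.25. The stages of Nkx2-5Cre did not overlap one another, while the Isl1Cre libraries of E8.75 enclosed the E9.25 value. The Nkx2-5Cre step to E8.25 was called (1.26 ± 0.39, adjusted p = 0.0362), and its change between E8.25 and E9.25 was 1.52 ± 0.39 (adjusted p = 0.0909). The first call was weak: it was lost with edgeR and DESeq2 (0.80 with each, adjusted p = 0.158 and 0.112), and without Nkx2-5Cre E7.75 replicate 1, either Nkx2-5Cre library of E8.25 or either of E9.25 (0.75 to 1.33, adjusted p = 0.0509 to 0.339), and 12 of the 21 draws called it. The second was called by DESeq2 (1.48, adjusted p = 0.00649), with a pseudocount of 10 (1.32, adjusted p = 0.0463) and without either Isl1Cre library of E8.75 (adjusted p = 0.0321 and 0.0339). In Isl1Cre cells the same changes were 0.37 ± 0.39 and 1.11 ± 0.47 (adjusted p = 0.618 and 0.167). The Isl1Cre step was called once endothelial-like and endoderm-like cells were left out (1.60, adjusted p = 0.00774), and so was a lower Isl1Cre level averaged over the stages (-0.82, adjusted p = 0.0181, against -0.47 ± 0.20 and 0.197 in all cells). In cardiomyocyte-like cells alone the Isl1Cre change between E8.25 and E9.25 was 1.86 (adjusted p = 0.0332).

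Among the inhibitor genes, Sfrp5 and Dkk1 fell between E7.75 and E8.25 in Nkx2-5Cre cells, and Tmem88 was highest in Nkx2-5Cre cells of E7.75. Sfrp1 was called by limma in none of the 10 comparisons. Sfrp5 (chr19:42197971-42202252), a secreted frizzled-related protein gene active in early cardiac progenitors, was at 137.6 and 138.4 CPM in Isl1Cre and 259.0 and 162.1 CPM in Nkx2-5Cre at E7.75. At E8.25 it was at 90.0 and 65.6 CPM in Isl1Cre, against 20.3 and 21.5 CPM in Nkx2-5Cre. Its groups did not overlap at E8.25, where Isl1Cre was 3.48-fold higher (1.8 ± 0.48, adjusted p = 0.0345). In Nkx2-5Cre cells Sfrp5 fell 9.37-fold over this step (-3.23 ± 0.48, adjusted p = 0.00014), a call that held under each of the 8 alternative settings, 15 omissions of a library and 21 draws. In Isl1Cre cells the step was -0.91 ± 0.48 (adjusted p = 0.255) and the difference of the steps 2.32 ± 0.68 (adjusted p = 0.0836). That difference was called in 6 of the 21 draws of thinned cells (median 2.47, adjusted p = 0.0665) and without either Nkx2-5Cre library of E8.75 (adjusted p = 0.0169 and 0.0188). Isl1Cre cells were at 8.55 and 17.9 CPM at E8.75 and 10.4 CPM at E9.25, and the change between E8.25 and E9.25 was -2.67 ± 0.59 (adjusted p = 0.00741). Nkx2-5Cre libraries were at 14.5 and 63.3 CPM at E8.75, which overlapped Isl1Cre, and at 4.96 and 9.47 CPM at E9.25.

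The higher Sfrp5 level of Isl1Cre cells at E8.25 depended on several libraries and settings. Without any 1 of the 4 libraries of E8.25 it was 1.58 to 2.03 (adjusted p = 0.113 to 0.234), and without Isl1Cre E7.75 replicate 2 the adjusted p was 0.0501. In cardiomyocyte-like cells alone the value was 1.78 (adjusted p = 0.0846), and DESeq2 gave 1.84 (adjusted p = 0.0606). The Isl1Cre fall between E8.25 and E9.25 was not called by edgeR or DESeq2 (-1.75 with each, adjusted p = 0.103 and 0.165) or without Isl1Cre E8.25 replicate 1 (adjusted p = 0.0563).

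Dkk1 (chr19:30545863-30549665), the Dickkopf 1 gene, was at 8.85 and 52.0 CPM in Isl1Cre and 30 and 22.1 CPM in Nkx2-5Cre at E7.75. At E8.25 it was at 1.39 and 11.3 CPM in Isl1Cre, against 1.87 and 2.37 CPM in Nkx2-5Cre. The replicates of Isl1Cre lay far apart at both stages. In Nkx2-5Cre cells Dkk1 fell (-3.10 ± 0.71, adjusted p = 0.00624; 0.0516 without Nkx2-5Cre E7.75 replicate 1). In Isl1Cre cells the step was -2.13 ± 0.71 (adjusted p = 0.0566), and it was called without Isl1Cre E7.75 replicate 1 or Isl1Cre E8.25 replicate 2 (-3.36 and -3.32, adjusted p = 0.00879 and 0.0108) and with edgeR and DESeq2 (-3.25 and -3.30, adjusted p = 0.0255 and 0.0264). At E7.75 Dkk1 was seen in 23.3% and 41.2% of Isl1Cre cells and in 80.2% and 57.4% of Nkx2-5Cre cells (unthinned). Those Isl1Cre libraries were shallower, with median counts per cell of 105339.5 and 127704.0, against 360929.0 and 203581.0 in Nkx2-5Cre. In thinned cells the shares overlapped, at 8.33% and 22.0% in Isl1Cre and 25.6% and 19.0% in Nkx2-5Cre (medians of the 21 draws). In unthinned cells, the tenth of cells with the most Dkk1 held 86.1% and 84.0% of its summed CPM in those Isl1Cre libraries. It held 71.8% and 75.6% in those of Nkx2-5Cre.

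Tmem88 (chr11:69396519-69398234), which encodes a membrane protein that restrains the Wnt relay protein Dishevelled, was at 38.3 and 28.6 CPM in Isl1Cre at E7.75, against 180.9 and 142.1 CPM in Nkx2-5Cre. Isl1Cre was 4.58-fold lower (-2.19 ± 0.45, adjusted p = 0.00478), and Tmem88 was seen in 38.1% and 29.3% of its thinned cells, against 90.7% and 83.3% in Nkx2-5Cre (unthinned 55.6% and 51.8%, against 95.6% and 93.6%). This call was lost without Nkx2-5Cre E7.75 replicate 1 or Isl1Cre E7.75 replicate 2 (adjusted p = 0.0569 and 0.0635). The Nkx2-5Cre replicates of E8.25 disagreed, at 110.2 and 29.5 CPM, around Isl1Cre values of 51.1 and 33.4 CPM. The Nkx2-5Cre step was -1.47 ± 0.45 (adjusted p = 0.0358), and 1 library decided its size: it was -0.54 without Nkx2-5Cre E8.25 replicate 2 (adjusted p = 0.483). It was not called without either Nkx2-5Cre library of E7.75 (adjusted p = 0.0977 and 0.164) or by edgeR or DESeq2 (adjusted p = 0.108 and 0.195), and 13 of the 21 draws called it. From E8.75 on, the 7 libraries held 13.2 to 33.8 CPM.

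Sfrp1 (chr8:23411502-23449632), a further secreted frizzled-related protein gene, lay between 15.1 and 49.6 CPM over the 15 libraries. Averaged over the stages, Isl1Cre minus Nkx2-5Cre was 0.33 ± 0.17 (adjusted p = 0.301). Lef1 (chr3:131110471-131224356), which encodes a DNA-binding partner of beta-catenin, lay between 30.8 and 72.7 CPM. At E7.75 Lef1 was at 47.1 and 47.3 CPM in Isl1Cre and 64.8 and 72.7 CPM in Nkx2-5Cre, a difference of -0.49 ± 0.27 (adjusted p = 0.334) that did not pass although the groups did not overlap. Axin2 (chr11:108920349-108950783), a feedback inhibitor and standard readout of canonical signalling, was at 1.01 and 1.93 CPM in Isl1Cre and 5.00 and 4.54 CPM in Nkx2-5Cre at E7.75. Elsewhere it lay between 0.271 and 4.95 CPM, with 691 counts over all kept cells, so Axin2 gives little precision for any comparison.

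The share of these genes that were called differed between comparisons. At E7.75, Isl1Cre against Nkx2-5Cre called 3 of the 9 tested (Wnt2, Wnt5a and Tmem88, all lower), where 7.13% of all 10665 genes were called. At E8.25 it called 2 of 9 (Sfrp5 higher and Wnt11 lower), against 5.11% of all genes. The step to E8.25 called 2 of 9 in Isl1Cre, against 12.2% of all genes, and 5 of 9 in Nkx2-5Cre, against 13.8%. Between E8.25 and E9.25 Isl1Cre called 2 of 9, against 8.39%. The difference of the steps called 2 of 9, against 1.89%. The median log2 change of the 9 genes was -0.49 at E7.75 and -0.52 for the Nkx2-5Cre step, beside -0.06 and -0.01 over all genes tested.

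In 4 comparisons limma called none of the 9 genes. Isl1Cre against Nkx2-5Cre at E8.75, where 0.319% of all genes were called, had 1 gene at an unadjusted p under 0.05 (Sfrp5) and none called by edgeR or DESeq2. At E9.25, with 0.975% of all genes called, no gene reached an unadjusted 0.05 and neither count tool called any, with 1 Isl1Cre library. Averaged over the stages, with 7.35% called, 4 genes were under an unadjusted 0.05, edgeR called Wnt2 and DESeq2 called Wnt2 and Wnt11. For Nkx2-5Cre between E8.25 and E9.25, with 0.694% called, 4 genes were under an unadjusted 0.05, edgeR called Tmem88 and DESeq2 called Wnt2, Rspo3 and Tmem88.

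**Figure D2:**
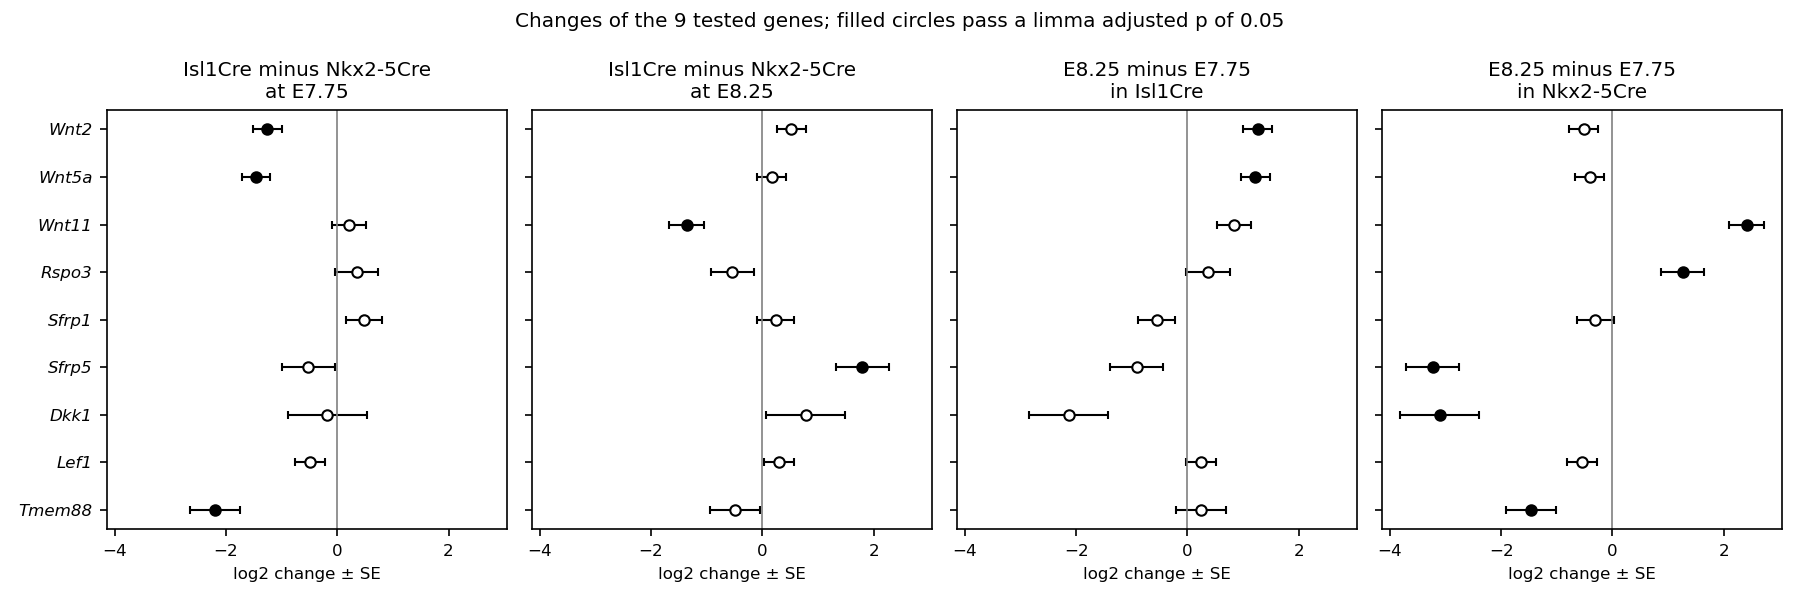
Log2 change ± SE (x axis; points are limma estimates, bars 1 SE) of the 9 tested genes in 4 comparisons, with filled circles where the adjusted p was under 0.05. Wnt2 and Wnt5a are filled on the left of 0 at E7.75 and on the right in the Isl1Cre step, and 5 genes are filled in the Nkx2-5Cre step.

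The makeup of the libraries moved with these comparisons. Of the 17 cardiomyocyte markers examined, 16 were lower in both Isl1Cre libraries at E7.75, with summed levels of 7440.8 to 8428.1 CPM in Isl1Cre and 15810.7 to 17367.8 CPM in Nkx2-5Cre. Of 14 endothelial markers, 4 were higher and 0 lower in both Isl1Cre libraries. The endothelial sums overlapped, at 355.6 to 729.5 CPM in Isl1Cre against 249.3 to 493.4 CPM in Nkx2-5Cre. The share of all genes whose libraries separated in this way was not counted, here or for the marker counts that follow. At E8.25, 16 of the 17 cardiomyocyte markers were again lower in Isl1Cre (27293.3 to 27491.1 CPM in sum, against 44105.8 to 48724.9 CPM), and 10 of 12 endoderm markers were higher (3130.0 to 3202.4 CPM, against 778.4 to 939.5 CPM). No marker of these 3 lists was at 0 in either lineage at E7.75 or E8.25. At E9.25, 15 of the cardiomyocyte markers were higher and 13 of the endothelial markers lower in the Isl1Cre library (61210.1 and 175.3 CPM in sum) than in both Nkx2-5Cre libraries (42965.7 to 48433.4 and 543.8 to 770.5 CPM). The 8 blood markers summed to at most 0.567 CPM in Isl1Cre at E8.75, against 1182.8 to 1415.8 CPM in Nkx2-5Cre. Without the endothelial-like and endoderm-like cells defined below, the E7.75 differences were -1.07 for Wnt2, -1.47 for Wnt5a and -2.09 for Tmem88, and the E8.25 differences were -1.31 for Wnt11 and 1.73 for Sfrp5, all still called (adjusted p = 0.00148 to 0.0439). The part of the muscle markers in the E7.75 differences was not tested. Over the Isl1Cre step to E8.25 all 17 cardiomyocyte markers rose, from sums of 7440.8 to 8428.1 CPM to sums of 27293.3 to 27491.1 CPM. By the classes defined below, progenitor-like cells numbered 61 of 175 at E7.75 and 1 of 186 at E8.25. Cardiomyocyte-like cells numbered 3 and 125. The part of this shift in the Wnt2 and Wnt5a steps was not tested.

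To place the genes among cell types, the kept cells were clustered without the 123 genes of the Wnt lists, which gave 15 clusters. From marker genes, 7 clusters (830 cells) were cardiomyocyte-like, 2 (117 cells) endothelial-like, 1 (40 cells) endoderm-like and 1 (63 cells) progenitor-like, and 4 (282 cells) stayed unnamed. Few E7.75 cells were cardiomyocyte-like (3 of 175 in Isl1Cre and 4 of 185 in Nkx2-5Cre), although the unnamed clusters of that stage held Tnnt2 at 1019.3 to 2355.8 CPM. The cardiomyocyte-like cells of E7.75 all lay in cluster 9, a shallow cluster of 81 cells (median depth relative to the library 0.0486). Cluster 9 is left out of the descriptions by single cluster that follow. It was kept in the class wherever cardiomyocyte-like cells were tested or correlated together, apart from cells too shallow to be thinned. The name progenitor-like rests on 5 of 10 markers.

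The Wnt genes were spread unevenly over the cardiomyocyte-like clusters, and Wnt2 and Wnt5a peaked in different ones. Wnt2 was highest in clusters 5 and 6, at 461.2 and 362.5 CPM, both led by Trdn and Tnni3 and with the peptide gene Gal among their leading genes. It was at 39.3 to 141.1 CPM in clusters 1, 2, 4 and 7. Wnt5a was highest in clusters 2 and 4, at 111.9 and 77.8 CPM, both led by Myh7, Tdgf1 and Pyy, and was at 22.3 and 23.0 CPM in clusters 5 and 6. Wnt11 was likewise highest in clusters 4 and 2, at 83.1 and 62.2 CPM. Rspo3 was highest in clusters 4 and 6 (170.2 and 114.4 CPM) and lowest among these in cluster 7 (6.10 CPM), which was led by Cck, Nppa and Myl2. Sfrp5 reached 136.3 CPM in cluster 5 and only 1.20 CPM in cluster 4. Cluster 4 held 52 cells of Nkx2-5Cre E9.25 and none of E7.75, and Rspo3 varied within it between 33.7 CPM (Isl1Cre E8.75 replicate 2) and 291.2 CPM (Nkx2-5Cre E9.25 replicate 1).

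Several differences between the lineages were also visible within a cluster. In cluster 2 at E8.25, Wnt11 was at 38.0 and 22.0 CPM in Isl1Cre libraries, against 92.3 and 110.8 CPM in Nkx2-5Cre libraries. Sfrp5 was there at 40.9 and 26.7 CPM in Isl1Cre, against 3.01 and 3.82 CPM in Nkx2-5Cre. Rspo3 was at 7.06 and 10.2 CPM in Isl1Cre, against 63.2 and 45.1 CPM in Nkx2-5Cre, a wider gap than in all cells. These values rest on 28, 31, 14 and 18 cells and were not tested. In all cardiomyocyte-like cells of E8.25 the Wnt11 difference was -1.18 and was called (adjusted p = 0.0213).

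At E7.75 most cells of the lineages lay in different clusters. Isl1Cre cells were mostly in cluster 10 (71 cells, unnamed) and the progenitor-like cluster 11 (61 cells), and Nkx2-5Cre cells in clusters 3 and 12 (116 and 43 cells, both unnamed). Sfrp5 was high in all 3 unnamed clusters, at 245.6 CPM in cluster 10 and 220.6 and 227.7 CPM in clusters 3 and 12. Tmem88 was not: it was at 31.6 CPM in cluster 10, against 136.0 and 218.6 CPM in clusters 3 and 12, although Tnnt2 in clusters 10 and 3 was at 2327.6 and 2355.8 CPM. Wnt5a was at 27.0 CPM in cluster 10, against 72.2 and 44.5 CPM in clusters 3 and 12. In cluster 12 its Nkx2-5Cre libraries were apart, at 64.8 and 26.3 CPM, and the lower value lay between the 17.9 and 37.0 CPM of the Isl1Cre libraries in cluster 10. Wnt2 was at 116.9 CPM in cluster 10 and 39.7 CPM in cluster 11, against 153.7 and 224.5 CPM in clusters 3 and 12. The endoderm-like cluster 13 (14 Isl1Cre and 12 Nkx2-5Cre cells of E7.75) and the endothelial-like cluster 14 (22 and 6 cells) held both lineages, and the genes were not tested within them.

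Dkk1, Lef1 and Axin2 were highest outside the cardiomyocyte-like clusters, and Sfrp1 was high both inside and outside them. Dkk1 was at 114.8 CPM in the endoderm-like cluster, where 0 libraries had at least 10 cells, so no value by library is given. It was at 39.3 CPM in the progenitor-like cluster (7.42 and 66.9 CPM in its Isl1Cre E7.75 libraries, so 1 library carried that level). In the cardiomyocyte-like clusters other than cluster 9 it was at 1.03 to 7.41 CPM. Lef1 and Axin2 were highest in cluster 15, at 138.7 and 12.2 CPM, an unnamed cluster led by Hoxaas3, Etv2 and Hoxb6 with 33 of its 35 cells from Isl1Cre E8.25. Both were next highest in cluster 12, at 106.4 and 8.69 CPM. By library Axin2 was at 4.10 and 20.9 CPM in cluster 15 and at 11.1 and 9.09 CPM in cluster 12, so its order rested on Isl1Cre E8.25 replicate 2. Sfrp1 was at 71.0 CPM in the progenitor-like cluster and 65.2 CPM in cardiomyocyte-like cluster 5. Their libraries overlapped, at 61.0 and 82.3 CPM against 18.5 to 98.3 CPM. Sfrp1 was at 1.82 CPM in endothelial-like cluster 8. That endothelial-like cluster also had the lowest Lef1, at 10.8 CPM. Its Wnt2, at 17.7 CPM, lay close to the 18.0 CPM of the endoderm-like cluster 13 and the 22.5 CPM of endothelial-like cluster 14.

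**Figure D3:**
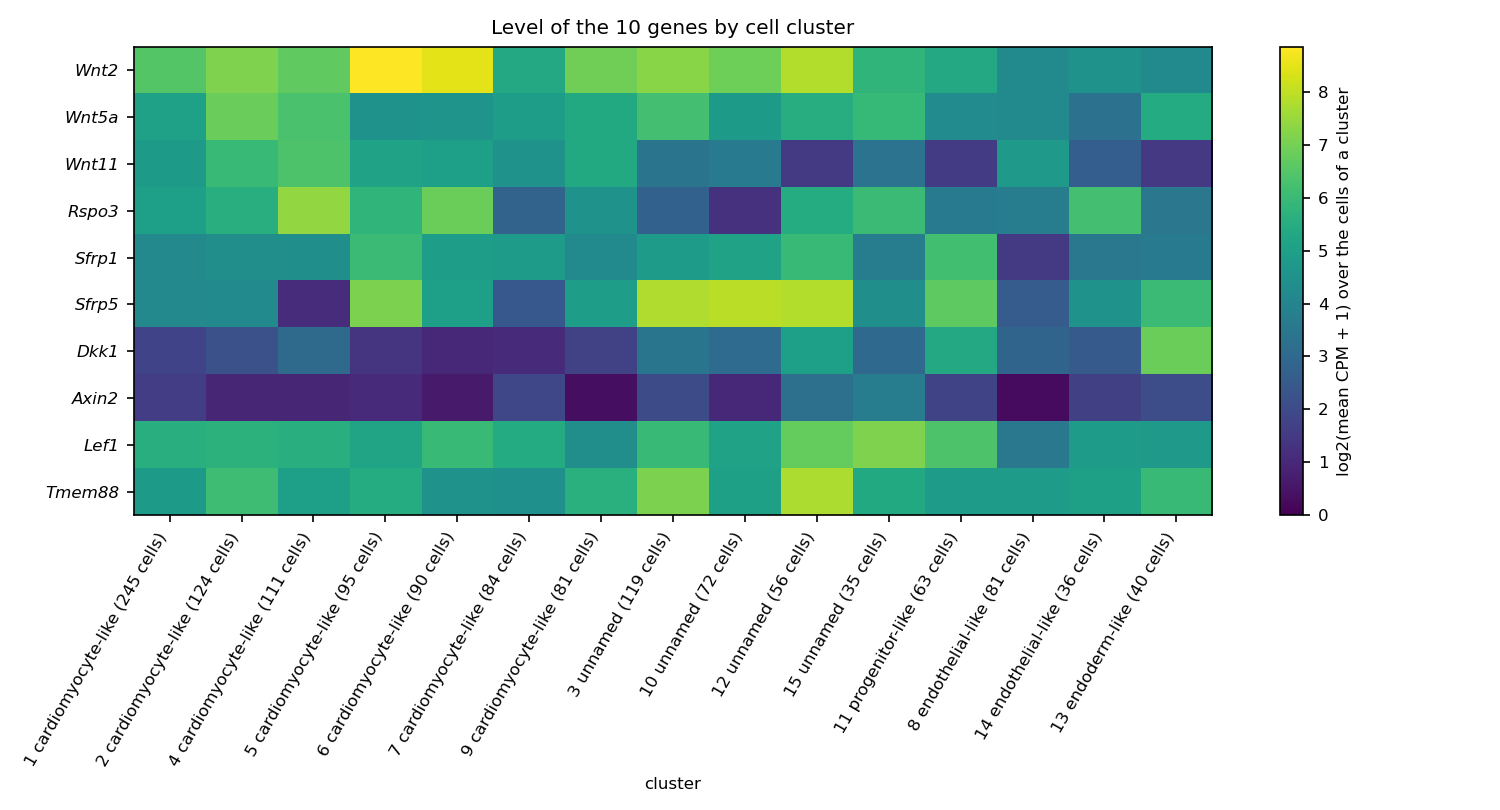
Level of each gene (rows) in each of the 15 clusters (columns, with class and number of cells), as log2(mean CPM + 1) over all cells of a cluster on a colour scale from 0. Wnt2 is brightest in clusters 5 and 6, Rspo3 in cluster 4, Sfrp5 in clusters 3, 10 and 12, and Dkk1 in cluster 13.

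Across the cells of a library, Wnt2 had the highest median correlation with Tnnt2 of the 10 genes. Its Spearman correlation with Tnnt2, in cells thinned to 20000 counts, was positive in 14 of 15 libraries, from -0.03 to 0.54 with a median of 0.23 (each library by its median over the 21 draws). It was highest in Isl1Cre E7.75 replicate 1 (0.54 over 84 cells), followed by Isl1Cre E8.25 replicate 1 (0.42 over 82 cells) and Isl1Cre E7.75 replicate 2 (0.38 over 82 cells), and it was negative in Nkx2-5Cre E8.25 replicate 1. In all kept cells as recovered the median was 0.23, and the correlation was below 0 in Isl1Cre E9.25 (-0.01) and Nkx2-5Cre E8.25 replicate 1 (-0.08). These are descriptions over cells that share a library and its depth, and cells of different types add to them. Within cardiomyocyte-like cells the Wnt2 correlation spread from -0.35 to 0.26 over 11 libraries, with a median of 0.08.

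Over all cells of a library, the correlation of Rspo3 with Tnnt2 differed between stages. It was negative in all 4 libraries of E7.75, from -0.31 to -0.07, and in both Isl1Cre libraries of E8.25 (-0.12 and -0.22). It was positive in the other 9 of the 11 later libraries, with a median over the 11 of 0.13 and a highest value of 0.34 in Nkx2-5Cre E8.75 replicate 1. Within cardiomyocyte-like cells it was between 0.01 and 0.28 in 11 libraries, with 0.06 and 0.08 in those of Isl1Cre E8.25. None of the 11 was of E7.75, so a change from that stage could not be seen within these cells. Sfrp5 went with Tnnt2 in Isl1Cre cells of E7.75 (0.50 and 0.40), while it was 0.05 and 0.10 in Nkx2-5Cre cells of that stage. Inside the cardiomyocyte-like cells of Isl1Cre E8.25 it ran the other way, at -0.50 and -0.39 over 52 and 56 cells. Dkk1 was negative in 14 of 15 libraries, with its lowest value in Isl1Cre E7.75 replicate 2 (-0.35). In the 11 later libraries thinned Dkk1 was seen in few cells, so those signs carry little weight. Its share there ran from 1.28% (Nkx2-5Cre E8.75 replicate 2) to 9.3% (Isl1Cre E8.25 replicate 2). For Wnt5a, Wnt11, Sfrp1, Axin2, Lef1 and Tmem88 the medians over libraries lay between -0.05 and 0.08. Over the 21 draws taken singly, the median over libraries was 0.18 to 0.26 for Wnt2 and 0.01 to 0.11 for Rspo3, and the draw made first gave 0.26 for Wnt2 and 0.15 for Rspo3. The correlation of Tnnt2 itself with a cell's depth was -0.32 to 0.07.

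Among pairs of the 10 genes within cardiomyocyte-like cells, Wnt2 and Rspo3 stood highest, with a median Spearman correlation of 0.31 and positive values in 11 of 11 libraries (0.09 to 0.41). The other pairs had medians from -0.10 (Wnt2 with Wnt5a) to 0.17 (Wnt5a with Wnt11).

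**Figure D4:**
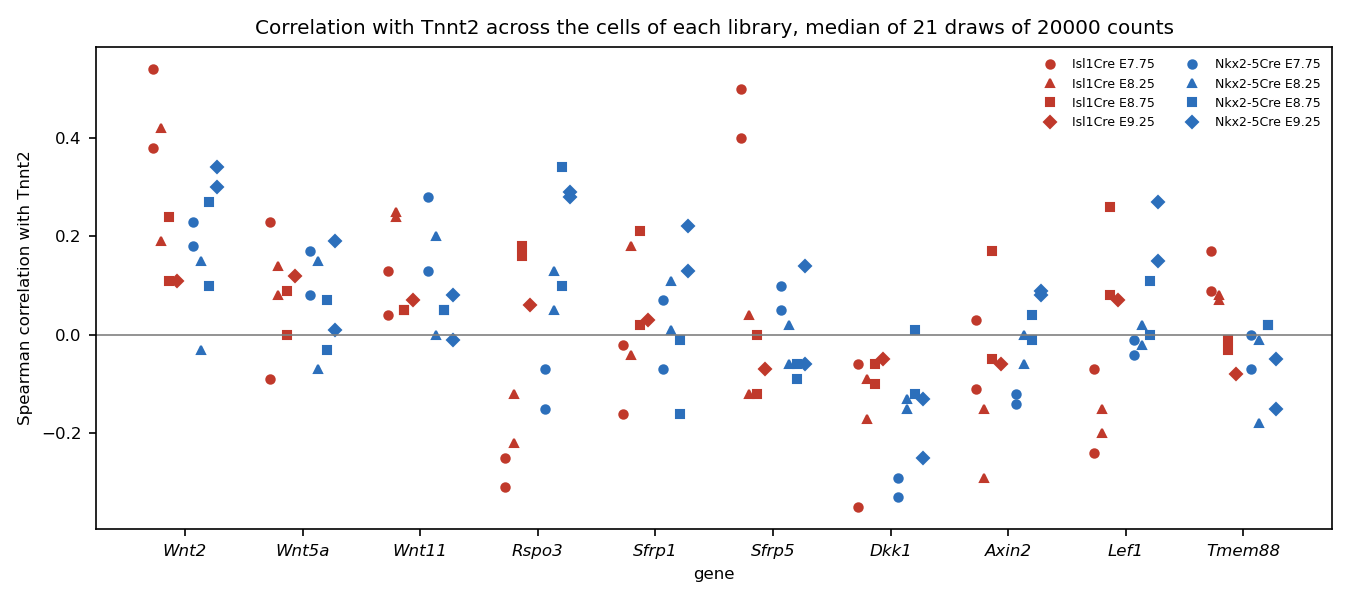
Spearman correlation of each gene with Tnnt2 (y axis, no unit) across the cells of each of the 15 libraries, 1 point per library, the median of 21 draws of 20000 counts per cell; colours are Isl1Cre (red, left) and Nkx2-5Cre (blue), and symbols are stages. All Wnt2 points but 1 lie above 0, and Rspo3 circles (E7.75) all lie below 0.

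For each tested gene, the genes outside the Wnt lists with the most similar course over the 8 groups were found by the root mean square difference of centred log2 group means. Sfrp5 was nearest to Crb3 (0.29), the receptor gene Pdgfra (0.34) and Spink1 (0.38), while its own SD over the groups was 1.63. Wnt2 was nearest to the potassium channel gene Kcna5 (0.32), the adenosine receptor gene Adora1 (0.34) and Calca (0.36), with an SD of 0.73. Wnt11 was nearest to 1810021B22Rik (0.27), Hyi and Rras (0.30 each), with an SD of 1.03. Tmem88 was nearest to the homeobox gene Msx2 (0.38), Ube2l6 (0.40) and Grb7 (0.42), with an SD of 0.94. For Lef1, Sfrp1 and Wnt5a, which varied little (SD 0.27 to 0.41), the nearest genes differed by 0.07 to 0.19.

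The wider pathway was read from 9 lists of 123 Wnt genes, of which 75 were tested. Isl1Cre against Nkx2-5Cre called 5 higher and 5 lower at E7.75, and 10 higher and 1 lower at E8.25. Over all 10665 genes 7.13% (355 higher and 405 lower) and 5.11% (267 higher and 278 lower) were called in these comparisons. Of 9 tested target genes 3 were called higher at E8.25 (Sp5, Cdx4 and Myc), with a list median of 1.90. These were at 14.5 CPM or less in every library. Of 21 draws of thinned cells, 0 called Sp5 there, 2 called Cdx4 and 16 called Myc. Cdx4 was among the leading genes of the unnamed cluster 15, which held 33 Isl1Cre and 2 Nkx2-5Cre cells of E8.25. The part of that cluster in the target gene calls was not tested. The Isl1Cre step to E8.25 called 9 higher and 4 lower, beside 12.2% of all genes (850 higher and 453 lower). The Nkx2-5Cre step called 2 higher and 11 lower, beside 13.8% of all genes (845 higher and 630 lower). The 13 genes called of 75 in each step were thus a share near that of all genes. Between E8.25 and E9.25 limma called 2 higher and 10 lower in Isl1Cre, beside 8.39% of all genes, and none in Nkx2-5Cre (13 at an unadjusted p under 0.05; edgeR called 1 and DESeq2 7).

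In Nkx2-5Cre cells, 11 of the 75 genes fell between E7.75 and E8.25, among them inhibitor, receptor, relay and target genes. The makeup of the libraries moved over the same step: all 17 cardiomyocyte markers were higher in both E8.25 libraries (44105.8 to 48724.9 CPM in sum at E8.25, against 15810.7 to 17367.8 CPM at E7.75) and 11 of 12 endoderm markers were lower (778.4 to 939.5 CPM, against 1782.5 to 2429.0 CPM). Endoderm-like cells numbered 0 at E8.25 and 12 at E7.75, and the part of these shifts in the falls was not tested. Of 8 tested genes of secreted inhibitors 3 fell and none rose, Sfrp5, Dkk1 and Frzb, another frizzled-related protein gene (7.54 ± 0.813 CPM at E8.25 and 35.8 ± 0.99 CPM at E7.75; SD, n = 2 each; -2.11 ± 0.48, adjusted p = 0.00596). Of 10 membrane and intracellular inhibitor genes 3 fell, Tmem88, Nkd1 (-2.17 ± 0.44, adjusted p = 0.00239) and Dact1 (-1.35 ± 0.43, adjusted p = 0.0441). Of 10 receptor genes Fzd7 and Fzd2 fell (-2.35 ± 0.40 and -0.99 ± 0.25, adjusted p = 0.000516 and 0.0126). Of 13 relay genes the beta-catenin gene Ctnnb1 fell, to 133.2 ± 11.2 CPM at E8.25, against 243.5 ± 51.3 CPM at E7.75 (-0.85 ± 0.22, adjusted p = 0.013). Of 9 target genes 3 fell and 0 rose, Sp5, Myc and Nkd1, which is in both lists. Sp5 was at 1.78 and 1.06 CPM at E8.25, against 12.2 and 6.78 CPM at E7.75. Myc was at 1.52 and 0.452 CPM, against 7.89 and 4.70 CPM. The medians were -0.82 for secreted inhibitors, -0.45 for the other inhibitors and -0.30 for receptors. They were -0.04 for the relay and -0.22 for target genes, beside -0.01 over all genes tested. The falls of Frzb and Fzd7 held in each alternative setting, omission of a library and draw of thinned cells that was run. Without Nkx2-5Cre E7.75 replicate 1 those of Nkd1, Dact1, Fzd2 and Ctnnb1 were lost (adjusted p = 0.0517, 0.283, 0.0764 and 0.122). That of Fzd2 was also lost without Nkx2-5Cre E8.25 replicate 2 (adjusted p = 0.0874) and that of Ctnnb1 without Nkx2-5Cre E8.25 replicate 1 (adjusted p = 0.0722), and that of Dact1 with edgeR and DESeq2 (adjusted p = 0.128 and 0.0929) and in 20 of the 21 draws, with 1 calling it. Fzd2 was called in 20 of the draws, and Nkd1 and Ctnnb1 in all 21. Sp5 was called in 12 of the draws and Myc in 6.

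Vangl2 (chr1:172000960-172028444), a core gene of planar cell polarity, was called higher in Isl1Cre at each of the 4 stages. It was at 52.1 and 52.5 CPM in Isl1Cre and 7.42 and 6.13 CPM in Nkx2-5Cre at E7.75, and at 46.8 and 60.5 CPM against 4.04 and 6.48 CPM at E8.25. At E8.75 it was at 29.9 and 27.8 CPM in Isl1Cre, against 7.97 and 5.57 CPM in Nkx2-5Cre, and at E9.25 at 19.3 CPM against 3.51 and 5.73 CPM. No Isl1Cre library overlapped a Nkx2-5Cre one, and the average difference was 2.46 ± 0.18 (adjusted p = 4.21e-07). In the average over stages 7 of the 75 genes were called, 6 higher and 1 lower in Isl1Cre, where 7.35% of all genes were called. The others that were higher were the TCF gene Tcf7l2 (0.59, adjusted p = 0.00113), the R-spondin receptor gene Lgr4 (0.81, adjusted p = 0.00393), the Dishevelled gene Dvl3 (0.67, adjusted p = 0.0115), the receptor gene Fzd3 (0.59, adjusted p = 0.0145) and the ligand gene Wnt5b (1.19, adjusted p = 0.0356). Lgr4 and Wnt5b, like Vangl2, had every Isl1Cre library above every Nkx2-5Cre library of the same stage, with Wnt5b at 11.0 CPM or less. Without the filter Dvl3 and Fzd3 were not called (adjusted p = 0.0976 and 0.0895). Wnt5b was not called with a pseudocount of 10 (adjusted p = 0.0611) or under 10 omissions of a library (0.99 to 1.25, adjusted p = 0.0506 to 0.0776), and 1 of the 17 draws in which it was tested called it. Among 8 tested polarity genes, Prickle3 was lower in Isl1Cre (-0.73 ± 0.20, adjusted p = 0.0292) and the other 6 were not called in the average. The E8.75 call of Vangl2 (1.96) was lost without any 1 library of that stage (adjusted p = 0.0545 to 0.0966), and the E9.25 call (1.96) with edgeR (adjusted p = 0.121) and without either Nkx2-5Cre library of that stage or either Isl1Cre library of E8.25 (adjusted p = 0.0504 to 0.145). Of the 21 draws of thinned cells, 8 called Vangl2 at E8.75 and 7 at E9.25, while all 21 called it at E7.75, at E8.25 and in the average. The average call of Prickle3 was lost under 8 omissions of a library (-0.74 to -0.60, adjusted p = 0.0519 to 0.0824) and without the filter (adjusted p = 0.118).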

How the data were processed

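Single cells were barcoded and their 3′ ends sequenced after a modified Smart-seq2 reaction, per the labels' protocols. The deposited values are CPM per gene and cell. HTSeq, TopHat2 2.0.12 and CASAVA 1.8 appear in the submitters' processing notes, with the mouse build mm10. Whole counts were recovered from the CPM steps (100% of low values within 0.1 of a step) and used for depth, thinning and the count tests. No source used here says whether they are reads or unique molecular identifiers.

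Library means of CPM, scaled by TMM (0.955 to 1.042), were tested on log2(mean CPM + 1) with limma 3.58.1 in R 4.3.3 (trended variance, 8 groups, 7 residual degrees of freedom, Benjamini-Hochberg adjustment). A fold on this scale understates changes of low genes. edgeR 4.0.16 and DESeq2 1.42.0 on summed recovered counts were alternatives. Cells were clustered with leidenalg 0.10.2 at resolution 1.0 on 30 principal components of 2000 variable genes, and no doublet caller was run. A cluster was named where at least 3 markers, and at least a share of 0.5 of its list, were raised. Cells were thinned to 20000 counts in 1 random draw and then, after the data were seen, in 21 more, whose values the text gives. The limma script was checked on simulated data. Cell names shared between libraries numbered 0. Named genes outside the 10 were at most 4 per list and comparison among those called, by size of change. The 10 genes, the lists and the tests were chosen with earlier results of these data known.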

Additional observations from a re-analysis of the deposited data

Results flagged for a closer look

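The step between E7.75 and E8.25 differed between the lineages for 4 genes of the Wnt lists, by limma's test of the difference itself (Isl1Cre minus Nkx2-5Cre, adjusted over all genes). For Wnt2 it was 1.78 ± 0.37 (adjusted p = 0.0179) and for Wnt5a 1.63 ± 0.37 (adjusted p = 0.0287), as described with their levels. For Dact3, which encodes a Dishevelled-binding protein, it was 1.85 ± 0.40 (adjusted p = 0.021). Dact3 was at 125.9 ± 35.2 CPM at E8.25 and 35.8 ± 5.09 CPM at E7.75 in Isl1Cre, and at 108.7 ± 44.7 CPM at E8.25 and 118.4 ± 33.5 CPM at E7.75 in Nkx2-5Cre (SD, n = 2 each). For Myc, a growth regulator and canonical target, it was 3.24 ± 0.77 (adjusted p = 0.0357). Myc was at 11.7 ± 3.98 CPM at E8.25 and 3.89 ± 2.12 CPM at E7.75 in Isl1Cre, and at 0.986 ± 0.755 CPM at E8.25 and 6.29 ± 2.26 CPM at E7.75 in Nkx2-5Cre. The endoderm markers, higher in Isl1Cre at E8.25, moved with these differences, and their part in the Myc and Dact3 results was not tested. Both were fragile. The Dact3 difference was lost with edgeR (1.43, adjusted p = 0.13), in 11 of 21 draws of cells thinned to 20000 counts (median 1.64, adjusted p = 0.0542) and without Nkx2-5Cre E7.75 replicate 2, Nkx2-5Cre E8.25 replicate 2, Isl1Cre E7.75 replicate 2 or Isl1Cre E8.25 replicate 1 (1.42 to 1.70, adjusted p = 0.09 to 0.131). That of Myc was lost with edgeR (4.24, adjusted p = 0.0807), in 14 of 21 draws of cells thinned to 20000 counts (median 3.63, adjusted p = 0.0818) and without any 1 library of E7.75 or E8.25 other than Nkx2-5Cre E8.25 replicate 1 (2.79 to 3.69, adjusted p = 0.0552 to 0.176).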

How the results depend on the processing

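Thinning cells to 20000 counts is random, and 1 further draw was seen to lose calls. It and 20 others were then added after seeing the data: 6 of the 16 calls made for the 10 genes held in all 21 draws and 14 in more than 10, and the median count of called genes at E8.75 was 22 (16 to 37). Other than in these draws, over the 16 calls no sign changed in 132 values from other settings or in 238 values without a library, but 26 and 36 of them missed the threshold. Without the filter, which raised the genes tested to 17827, 10 of the 16 calls were lost: at E7.75 Wnt2 and Tmem88 (adjusted p = 0.0698 and 0.0839), at E8.25 Sfrp5 (0.206), in the Nkx2-5Cre step Rspo3, Dkk1 and Tmem88 (0.171, 0.0684 and 0.186), between E8.25 and E9.25 in Isl1Cre Wnt2 and Sfrp5 (0.0994 and 0.0776), and for the difference of steps Wnt2 and Wnt5a (0.119 and 0.0903). For the 74 uncalled pairs of gene and comparison, 51 of 633 values from other settings and 38 of 1085 without a library changed sign, and 20 and 13 became calls. The uncalled values printed in the text were chosen after the values were seen. Among uncalled values, the Tmem88 step in Isl1Cre (0.24, adjusted p = 0.801, with all libraries) was -0.07 without Isl1Cre E8.25 replicate 1 and up to 0.53 without replicate 2, and the Wnt5a step in Nkx2-5Cre was 0.00 without Nkx2-5Cre E8.25 replicate 1 and down to -0.85 without replicate 2. The cause was not tested.

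Counts of all called genes moved by over 1.5 times as follows. Without the filter they were 463 at E7.75 (760 with it), 303 at E8.25 (545), 231 at E9.25 (104), 45 for Nkx2-5Cre between E8.25 and E9.25 (74) and 119 for the difference of steps (202). DESeq2 called 961 at E8.25, 120 at E8.75 (34 by limma), 232 at E9.25, 238 for Nkx2-5Cre between E8.25 and E9.25 and 471 for the difference of steps. edgeR called 20 at E8.75 and 34 at E9.25, and a pseudocount of 10 gave 55 at E8.75. Cardiomyocyte-like cells alone gave 275 at E8.25, 21 at E8.75, 27 at E9.25 and 432 for Isl1Cre between E8.25 and E9.25 (895), and could not give the E7.75 comparisons. Without endothelial-like and endoderm-like cells E9.25 gave 26. The cause of these moves was not tested.

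Without a library in turn, the counts of Isl1Cre against Nkx2-5Cre were 528 to 901 averaged over stages (784 with all), 318 to 858 at E7.75, 148 to 555 at E8.25, 15 to 39 at E8.75 and 25 to 139 at E9.25. The step to E8.25 gave 669 to 1373 in Isl1Cre (1303) and 863 to 1548 in Nkx2-5Cre (1475), the change to E9.25 437 to 950 and 18 to 138, and the difference of steps 77 to 412. Leaving out the single Isl1Cre library of E9.25 could not give the average or the E9.25 comparisons of Isl1Cre. Same-numbered libraries did not pair: the correlation of their deviations was -0.03 to 0.17 over 21 pairs of 7 groups, with 1 pair over 0.1. With the replicate number as a block the E7.75 count was 821 and the difference of steps 255, and the Dkk1 step in Isl1Cre became a call (-2.13, adjusted p = 0.0486). The block changed no other call printed for the 10 genes. Depth limits Axin2 and Dkk1 most.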
